A study of Mus musculus with 24 samples.

Results

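The 10 genes described here take part in the recovery of phosphate and calcium from the tubular fluid of the kidney, or belong to the families of the transporters that do. They were chosen by name, as Slc34a1, Slc34a3, Slc20a1, Slc20a2, Slc17a1, Slc17a2, Slc17a3, Kl, Trpv5 and Calb1, and each name was found once among the 19399 genes of the deposited table. The samples were kidneys of 24 C57BL/6J mice, an inbred laboratory strain, all aged 10 weeks, with 1 library of polyadenylated RNA per mouse made from part of a kidney. The groups were 6 females and 6 males with free access to food and water (watered), and 5 females and 7 males whose water had been taken away for 9 to 11 h (deprived) per the treatment protocol. The clock times of the series' design text, removal at 3 pm and collection within 1 h of midnight, give 8 to 10 h instead. Every kidney was collected around midnight, in the active period of the mice, so the daytime state was not sampled. The labels name no transgene and no engineered deletion. The treatment label of deprived female 5 describes free access to water, whereas its title and its library code place it among the deprived females, where it was kept.

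Phosphate that passes the glomerular filter is taken back in the proximal tubule by sodium-coupled carriers of the SLC34 family in the brush border, together with the more widely expressed carriers of the SLC20 family. Parathyroid hormone and the bone hormone FGF23 lower this uptake by removing the SLC34 carriers from the membrane, and FGF23 acts through a receptor complex that needs the membrane protein Klotho, the product of Kl. The SLC17 genes were first described as phosphate carriers, and several are now known for moving urate and other organic anions. Calcium is fine-tuned farther along, in the distal convoluted and connecting tubules, where it enters through the channel Trpv5, is carried through the cell by the buffer calbindin, the product of Calb1, and leaves through Slc8a1 and calcium pumps. Klotho is most abundant in these distal segments and is known to hold Trpv5 at the cell surface.

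The libraries held 14411843 to 29398960 reads counted to genes. Markers of the tubule segments where these genes act were present: none of the 14 proximal tubule markers and none of the 8 distal convoluted and connecting tubule markers was at 0 in any library. A set of 4 libraries stood apart by the share of their reads in an unnamed gene, ENSMUSG00000119584, which was 1.07% to 2.86% there and 0.268% to 0.85% in the remaining 20. They came from watered female 6, from deprived female 1 and from deprived males 6 and 7. Results that rest on these 4 libraries are given with and without them. The tissue is a mixture of cells, so for every gene below fewer cells of a type and less RNA per cell cannot be told apart.

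The main result was a difference between the sexes in 6 of the 10 genes in watered mice, and no called response to water deprivation in either sex. A gene was called when its p-value from limma, adjusted by the Benjamini-Hochberg method over 17592 tested genes, was below 0.05. In watered mice, Slc34a1, Slc17a1, Slc17a3 and Kl were higher in males, and Slc34a3 and Slc17a2 were higher in females. Differences between the sexes were common in these kidneys, with 30.5% of all tested genes called, 15.9% higher and 14.5% lower in males. The groups did not overlap for 5 of the 10 genes, against 22.4% of all tested genes. The median size of the log2 difference, without its sign, was 0.38 over the 10 genes and 0.21 over all tested genes. All 10 genes passed the filter on low values, a normalized count of at least 10 in at least 5 libraries. Slc17a2 passed it through the females, having reached 10 in all 11 females but in 1 watered and 2 deprived males. Its difference was therefore bound to be large, and the count of groups that did not overlap includes it. Of the 9 other genes, 5 were called.

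**Figure D1:**
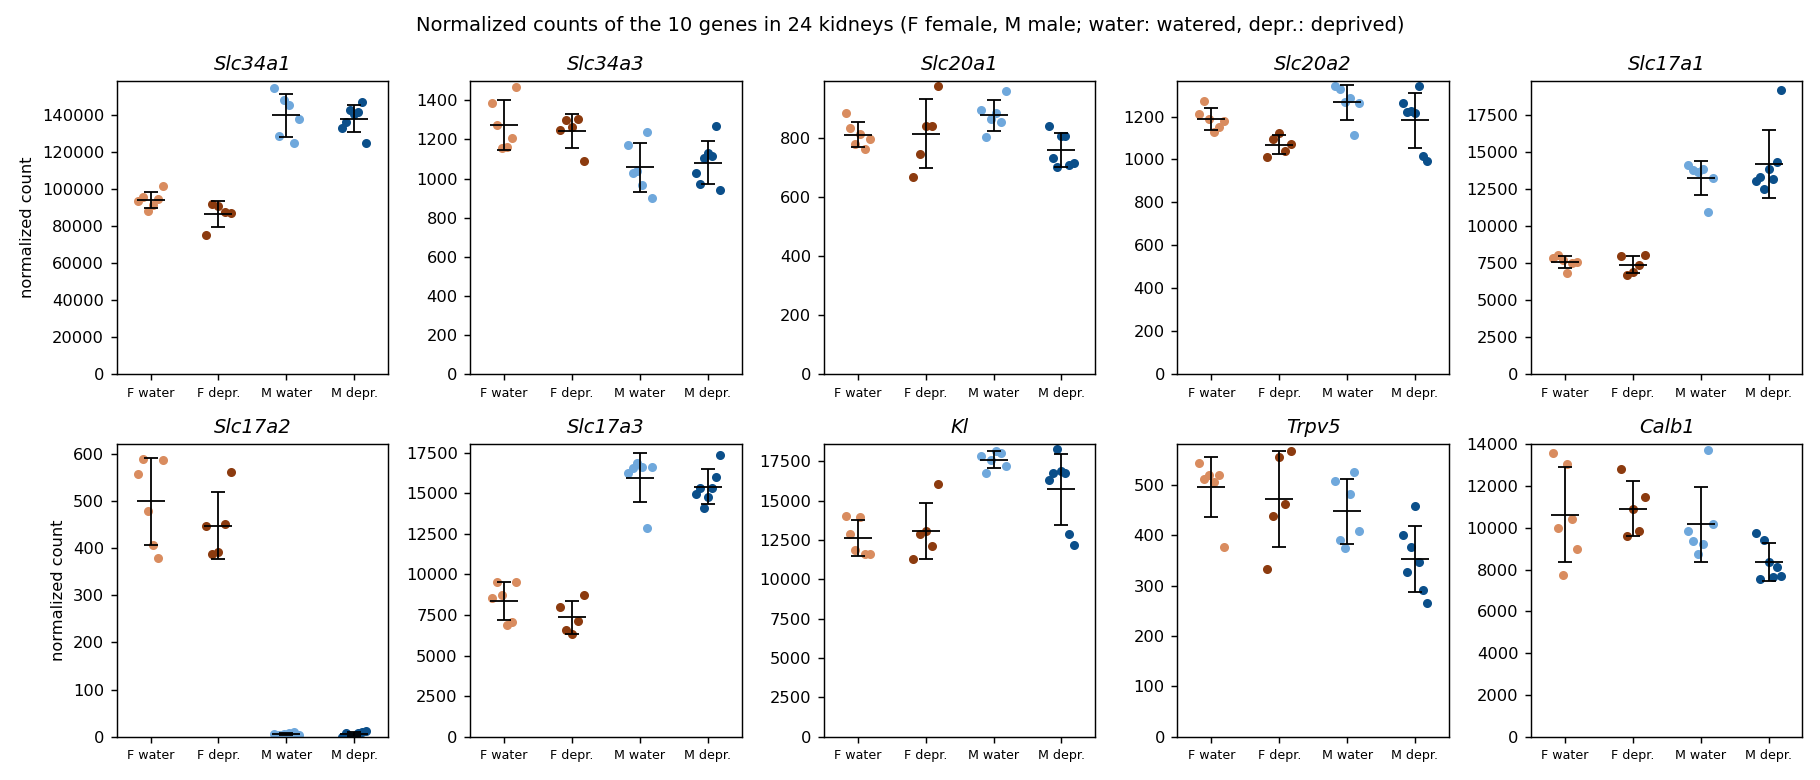
Normalized counts (vertical axes, linear, from 0) of the 10 genes in each of 24 libraries (points), by group, with the mean (wide bar) and SD (error bars). Slc34a1, Slc17a1 and Slc17a3 lie higher in every male than in any female, Slc17a2 lies between 379.2 and 589.2 in females and at or below 12.6 in males, and the deprived and watered groups of 1 sex overlap for most genes.

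Levels of different genes were compared as normalized counts per kilobase of exon. On this scale Slc34a1 was the highest in every library, with 16037 to 33032 per kilobase and a median of 26709.97. It was followed by Slc17a1, with a median of 4962, and by Calb1, Slc17a3 and Kl, with medians of 1998, 1987 and 1613 and ranges that overlapped one another. Slc34a3 came next with a median of 491.1 and a range of 382 to 623.4, which met that of no neighbour. Slc20a2, Slc20a1 and Trpv5 had medians of 193.1, 145.2 and 138.3, and their ranges overlapped in that order. Slc17a2 was the lowest, with a range from 0 in a male to 98.9 in a female, so that only females reached the range of Trpv5. With exon lengths from the basic transcript set, Calb1 moved from place 3 to place 5 and the other places held except that Slc17a3 and Kl moved up by 1.

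Slc34a1 encodes the main sodium-phosphate carrier of the brush border and lies on chromosome 13 at 55398187 to 55415592 of GRCm38, the assembly also called mm10, on the plus strand. Watered females had normalized counts of 88040.3 to 101433, with a median of 94224, and watered males 124803 to 154459, with a median of 141607. The deprived females had 74989, 92179, 91101, 87650.4 and 87044. The deprived males ran from 124989 to 147152 with a median of 140465. Every male was above every female in both water groups, and the transcript took 0.459% to 0.498% of reads in watered females and 0.593% to 0.693% in watered males. The male level was 1.49 times the female level in watered mice, a log2 difference of 0.57 ± 0.06 (SE, limma, adjusted p = 3.6e-08, n = 6 and 6), and 1.59 times in deprived mice (0.68 ± 0.06, limma, adjusted p = 2.2e-09, n = 7 males and 5 females). Pfn3 overlaps Slc34a1 on the opposite strand over 545 exonic bases, and whether the counting used strand is not given in the sources used here.

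Slc34a3 encodes the second brush-border carrier of the family, which in mice contributes mainly in young animals, and lies on chromosome 2 at 25228898 to 25234364, on the minus strand. Its normalized count was 1156 to 1470 in watered females, with a median of 1240, and 900.7 to 1236 in watered males, with a median of 1033. The 2 groups overlapped, and females were higher on average. The log2 difference, male minus female, was -0.27 ± 0.08 (limma, adjusted p = 0.011, n = 6 and 6). In deprived mice the females had 1246, 1301, 1264, 1304 and 1092, and the males 943.7 to 1269 with a median of 1106. That difference, -0.20 ± 0.08, did not pass the test (limma, adjusted p = 0.061), and it did pass without the 4 libraries that stand apart (-0.21 ± 0.08, adjusted p = 0.032) or without deprived female 5 (-0.25 ± 0.09, adjusted p = 0.031), deprived male 6 (-0.24 ± 0.08, adjusted p = 0.022) or watered male 5 (-0.20 ± 0.08, adjusted p = 0.049).

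The 2 carriers differed between the sexes in opposite directions on average in watered mice, and their ratio describes both at once. It was computed with those differences known, and the difference of Slc34a1 alone, whose sexes do not overlap, enters it. The ratio of the normalized count of Slc34a1 to that of Slc34a3 was 67.5 to 78.6 in watered females and 60.2 to 79.7 in deprived females. In males it was 101 to 153.2 when watered and 115.9 to 140 when deprived. The lowest male ratio, 101, was that of watered male 5, and no male overlapped any female. Per kilobase of exon the ratio had a median of 38.2 in watered females and 69.3 in watered males.

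Slc20a1 and Slc20a2 encode the widely expressed sodium-phosphate carriers. Slc20a1 lies on chromosome 2 at 129198764 to 129211616, and Slc20a2 on chromosome 8 at 22476788 to 22569612, both on the plus strand. Slc20a1 had 761 to 883.7 normalized counts in watered females, with a median of 805.2, and 802 to 957 in watered males, with a median of 873.2. Slc20a2 had 1130 to 1272 in watered females, with a median of 1184, and 1113 to 1340 in watered males, with a median of 1276. For both genes the sexes overlapped. The log2 differences, male minus female, were 0.11 ± 0.07 for Slc20a1 (95% interval -0.04 to 0.26, limma, adjusted p = 0.27) and 0.09 ± 0.07 for Slc20a2 (-0.04 to 0.22, limma, adjusted p = 0.33). In deprived mice neither was called, at -0.09 ± 0.07 (limma, adjusted p = 0.35) and 0.14 ± 0.07 (limma, adjusted p = 0.11). Without the 4 libraries that stand apart, Slc20a2 in deprived mice was called as higher in males, at 0.21 ± 0.05 (limma, adjusted p = 0.0013). Deprived males 6 and 7, which are among the 4, had the lowest counts of Slc20a2 in their group, and leaving out either gave the call too (adjusted p = 0.036 and 0.024). Genes on the opposite strand share 452 and 280 exonic bases with Slc20a1 and 95 with Slc20a2.

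Slc17a2, Slc17a3 and Slc17a1 lie next to one another in this order on the plus strand of chromosome 13, at 23806993 to 23825180, 23839434 to 23860716 and 23867750 to 23895730. The gaps between them measure 14253 and 7033 bases. The products of Slc17a1 and Slc17a3 are anion carriers of the proximal tubule tied to urate in human studies, and Slc17a2 is a close relative. The 250 bases before the RefSeq starts of the 3 genes are shown because these neighbours differed between the sexes in opposite directions; they are RefSeq promoter sequences of GRCm38.p6, read 5′ to 3′ on the plus strand. For Slc17a1, which has a pair of starts in that table, the downstream one is shown. Both of its windows lie inside the gene span given above. The choice decides the result for Slc17a1, since its upstream window lacks the match marked here. Capitals mark a match to TTCNNNGAA, the palindrome bound by STAT factors.
Slc17a2, chr13:23806743-23806992: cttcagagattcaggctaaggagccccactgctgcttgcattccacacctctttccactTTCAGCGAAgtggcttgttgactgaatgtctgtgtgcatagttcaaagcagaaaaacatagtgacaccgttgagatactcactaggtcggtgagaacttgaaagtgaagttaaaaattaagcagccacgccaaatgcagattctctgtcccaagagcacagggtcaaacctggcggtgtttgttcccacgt
Slc17a3, chr13:23839184-23839433: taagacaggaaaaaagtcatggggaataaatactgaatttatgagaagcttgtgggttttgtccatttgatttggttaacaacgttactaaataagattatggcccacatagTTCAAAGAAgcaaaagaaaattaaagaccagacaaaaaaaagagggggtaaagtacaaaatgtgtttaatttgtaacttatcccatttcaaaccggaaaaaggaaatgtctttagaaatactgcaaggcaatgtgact
Slc17a1, chr13:23870023-23870272: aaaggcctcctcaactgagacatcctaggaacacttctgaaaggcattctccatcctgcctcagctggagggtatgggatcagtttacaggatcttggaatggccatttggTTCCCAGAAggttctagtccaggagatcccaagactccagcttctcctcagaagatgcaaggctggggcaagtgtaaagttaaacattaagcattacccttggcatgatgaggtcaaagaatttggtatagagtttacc
The match begins 191 bases before the start of Slc17a2, 138 before that of Slc17a3 and 139 before that of Slc17a1. The palindrome reads the same on both strands, and 7.02% of the 32841 promoter windows of this length that were searched hold it. Windows of 1 chromosome and windows with undetermined bases were not searched. The upstream window of Slc17a1 holds none. The 3 windows hold no match, on either strand, to the androgen receptor hexamer AGAACA, which occurs in 16.1% of windows and overlaps the androgen receptor palindrome, and hold none to the androgen receptor palindrome, AGAACA and TGTTCT 3 bases apart (0.00913% of windows), the HNF1 site, TTAAT and ATTAA 1 base apart (0.116%), the HNF4 site CAAAGTCCA (0.384%) or the vitamin D receptor repeat, AGGTCA and AGGTCA 3 bases apart (0.00609%). Windows were found for 8 of the 10 genes, not for Slc20a2 and Calb1, and among the windows of the other genes a STAT match was in none, while AGAACA, on one of its strands, was in those of Kl, Slc34a1, the upstream start of Slc17a1 and 1 start of Slc20a1. A match describes letters and not binding.

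Slc17a1 and Slc17a3 were higher in every male than in any female. Slc17a1 had 6806 to 8053 normalized counts in watered females, with a median of 7632, and 10994 to 14169 in watered males, with a median of 13729.9. The deprived females had 8020.5, 6726, 6920.2, 7359 and 8033, and the deprived males 12546 to 19196 with a median of 13324. The male level was 1.75 times the female level when watered (log2 0.81 ± 0.08, limma, adjusted p = 1.7e-08) and 1.92 times when deprived (0.93 ± 0.08, limma, adjusted p = 1.6e-09).

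Slc17a3 had 6860 to 9553 in watered females, with a median of 8618, and 12866 to 16867 in watered males, with a median of 16571. The deprived females had 7985, 6575, 6336, 7151 and 8764, and the deprived males 14070.1 to 17376 with a median of 15336. The lowest male was above the highest female by a wide margin in both water groups. The male level was 1.91 times the female level when watered (log2 0.94 ± 0.09, limma, adjusted p = 4.7e-09) and 2.09 times when deprived (1.07 ± 0.09, limma, adjusted p = 5e-10). The ratio of Slc17a3 to Slc17a1 within a library stayed between 0.905 and 1.26 in all 24 animals.

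Slc17a2 went the other way and was close to absent in males. It had 379.2 to 589.2 normalized counts in watered females, with a median of 517.6, and the deprived females had 447, 386.9, 390.9, 450 and 562.1. Watered males had 4 to 10.3, with a median of 6.01, and deprived males 0 to 12.6, with a median of 7.38. These are 4 to 8 reads per watered male library and 0 to 12 per deprived male library, against 349 to 821 reads in females, so the male level is known only to within counting error of a few reads. No male overlapped any female. The female mean was 77.7 times the male mean in watered mice and 71.7 times in deprived mice. On the log2(value + 1) scale the difference was -6.11 ± 0.43 in watered mice (limma, adjusted p = 2e-11) and -6.40 ± 0.44 in deprived mice (limma, adjusted p = 1.1e-11). The added 1 shrinks changes at low values, whereas male values near 0 lower a mean of logs. These differences therefore need not follow the ratios of means. Of the summed normalized counts of the 3 genes, Slc17a2 made up 2.53% to 3.32% in watered females and 0.0132% to 0.043% in watered males. No sequence of 50 bases in the transcripts of Slc17a1, Slc17a2 or Slc17a3 occurs in those of another gene.

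The flanks of the cluster were examined after these values were seen. Slc17a4, another family member, which ends just past Slc17a1 on the opposite strand, had a mean of 72 in watered females and 80 in watered males and was not called (0.13 ± 0.14, limma, adjusted p = 0.51). It was called in deprived mice (0.40 ± 0.14, limma, adjusted p = 0.028). Within 250 kb of the cluster 10 other genes were tested. Of these, 4 were called in watered mice, the histone genes Hist1h1d, Hist1h2be and Hist1h1e and the iron regulator Hfe, and all 4 were lower in males. Over all tested genes 30.5% were called and 14.5% were lower. Hist1h2be and Hist1h1e overlap, so their reads may be shared.

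**Figure D2:**
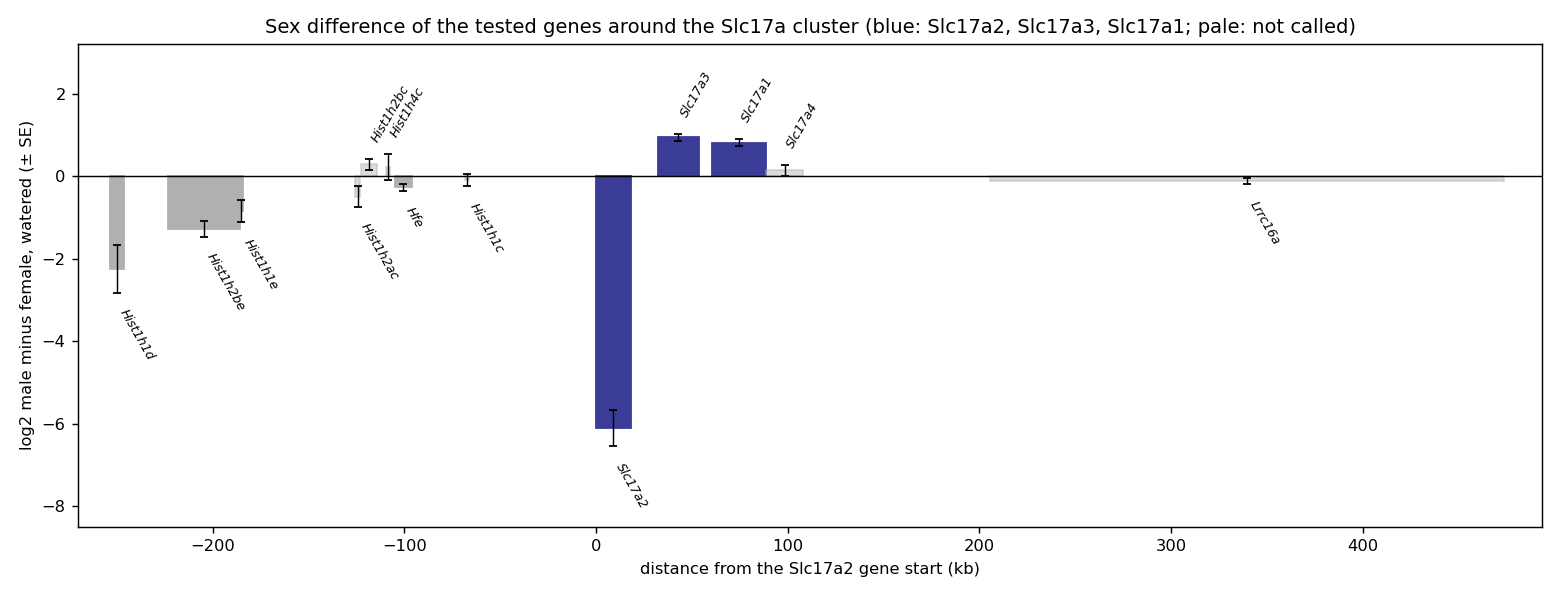
The log2 difference, male minus female, in watered mice (vertical axis, bars with SE) of each tested gene around the Slc17a cluster, by distance from the start of Slc17a2 in kilobases (horizontal axis); the width of a bar is the length of the gene, or 2 kb for shorter genes. Slc17a2 at -6.11 stands beside Slc17a3 at 0.94 and Slc17a1 at 0.81, and Slc17a4 at 0.13 was not called.

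The summed level of the 14 proximal tubule markers moved with the sex difference of these carriers. It was 436171 to 469090 in watered females and 557683 to 635886 in watered males, without overlap. By gene the list was mixed, with 6 of 14 markers higher and 2 lower in males and a median log2 difference of 0.04, against -0.02 over all tested genes. Its part in the results for Slc34a1, Slc17a1 and Slc17a3 was not tested. Slc34a3 and Slc17a2 were lower in males while this sum was higher.

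Kl lies on chromosome 5 at 150952607 to 150993817, on the plus strand. In watered mice it had 11589 to 14058 normalized counts in females, with a median of 12384, and 16773 to 18188 in males, with a median of 17699. The groups did not overlap, and the male level was 1.39 times the female level (log2 0.48 ± 0.09, limma, adjusted p = 0.00015). The deprived females had 11298, 12870.4, 13046, 12122 and 16042. Of the deprived males, 5 had 16322 to 18270.4, and deprived males 6 and 7 had 12889 and 12161, among the females. The difference in deprived mice was 0.26 ± 0.09 (limma, adjusted p = 0.029). This call was lost when the deprived groups were fitted alone (adjusted p = 0.11) and on leaving out deprived female 1, 2 or 4 or deprived male 2, 3, 4 or 5 (adjusted p of 0.052 to 0.086). Without the 4 libraries that stand apart it was 0.34 ± 0.06 (limma, adjusted p = 0.00011).

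Trpv5, the apical calcium channel, lies on chromosome 6 at 41652173 to 41680769 on the minus strand, and Calb1 on chromosome 4 at 15881264 to 15908064 on the plus strand. Trpv5 had 376.3 to 542.6 normalized counts in watered females, with a median of 514.6, and 373.6 to 524.4 in watered males, with a median of 444.7. Calb1 had 7735 to 13549.6 in watered females, with a median of 10186, and 8748 to 13703 in watered males, with a median of 9585. The sexes overlapped for both. For Trpv5, watered female 6 had 376.3 and the other watered females 505.8 to 542.6, a range that only watered males 1 (507.5) and 5 (524.4) reached. The log2 differences were -0.15 ± 0.13 for Trpv5 (95% interval -0.42 to 0.12, limma, adjusted p = 0.44) and -0.05 ± 0.12 for Calb1 (-0.30 to 0.20, limma, adjusted p = 0.80). Without the 4 libraries that stand apart the Trpv5 difference was -0.23 ± 0.09 (limma, adjusted p = 0.049).

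In deprived mice both genes were called as lower in males. Trpv5 had 333, 438.8, 554.2, 462.5 and 566.2 in females and 265.7 to 457.9 in males, with a median of 347.6. Calb1 had 12784, 9604, 10882, 9833 and 11479 in females and 7555 to 9761 in males, with a median of 8109.8. The groups overlapped for both, for Calb1 by a single female of 9604. The log2 differences were -0.41 ± 0.13 for Trpv5 (limma, adjusted p = 0.018) and -0.38 ± 0.12 for Calb1 (limma, adjusted p = 0.016). The Trpv5 call was lost when the deprived groups were fitted alone (adjusted p = 0.059), without deprived female 3 (adjusted p = 0.066) or 5 (adjusted p = 0.069), or with deprived female 5 counted as watered (adjusted p = 0.066). The Calb1 call was lost without the 4 libraries that stand apart (-0.30 ± 0.15, adjusted p = 0.14), deprived female 1 alone being enough (adjusted p = 0.0503).

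A call in deprived but not in watered mice does not show that the sex difference changed with water. The test of that change, the male response minus the female response, was -0.27 ± 0.19 for Trpv5 (limma, adjusted p = 0.77) and -0.33 ± 0.17 for Calb1 (limma, adjusted p = 0.71). In deprived mice 7 of the 10 genes were called between the sexes, 4 higher and 3 lower in males, against 33.1% of all tested genes, 17.5% higher and 15.6% lower. The groups did not overlap for 4 of them, against 15.5% of all tested genes. Both counts include Slc17a2, which passed the filter on low values through the females, so its difference was bound to be large.

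Between the sexes, the summed level of the 8 distal convoluted and connecting tubule markers moved in the same direction as Trpv5 and Calb1. With all libraries kept, neither gene was called in watered mice. The sum was 83417 to 104063 in watered females and 69754 to 87399 in watered males, and 82062 to 95141 in deprived females and 67772 to 89955 in deprived males. Its median was 73252 in watered and 72940 in deprived males. By gene, 0 of the 8 were called on deprivation in males. Their median log2 change in males was -0.22, against -0.0037 over all tested genes. Of the 8, 2 were lower and 0 higher in watered males, against 14.5% of all tested genes lower, with a median log2 difference of -0.22. In deprived males 5 were lower and 0 higher, against 15.6% lower, with a median of -0.42. The part of this marker list in the results for Trpv5 and Calb1 was not tested.

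**Figure D3:**
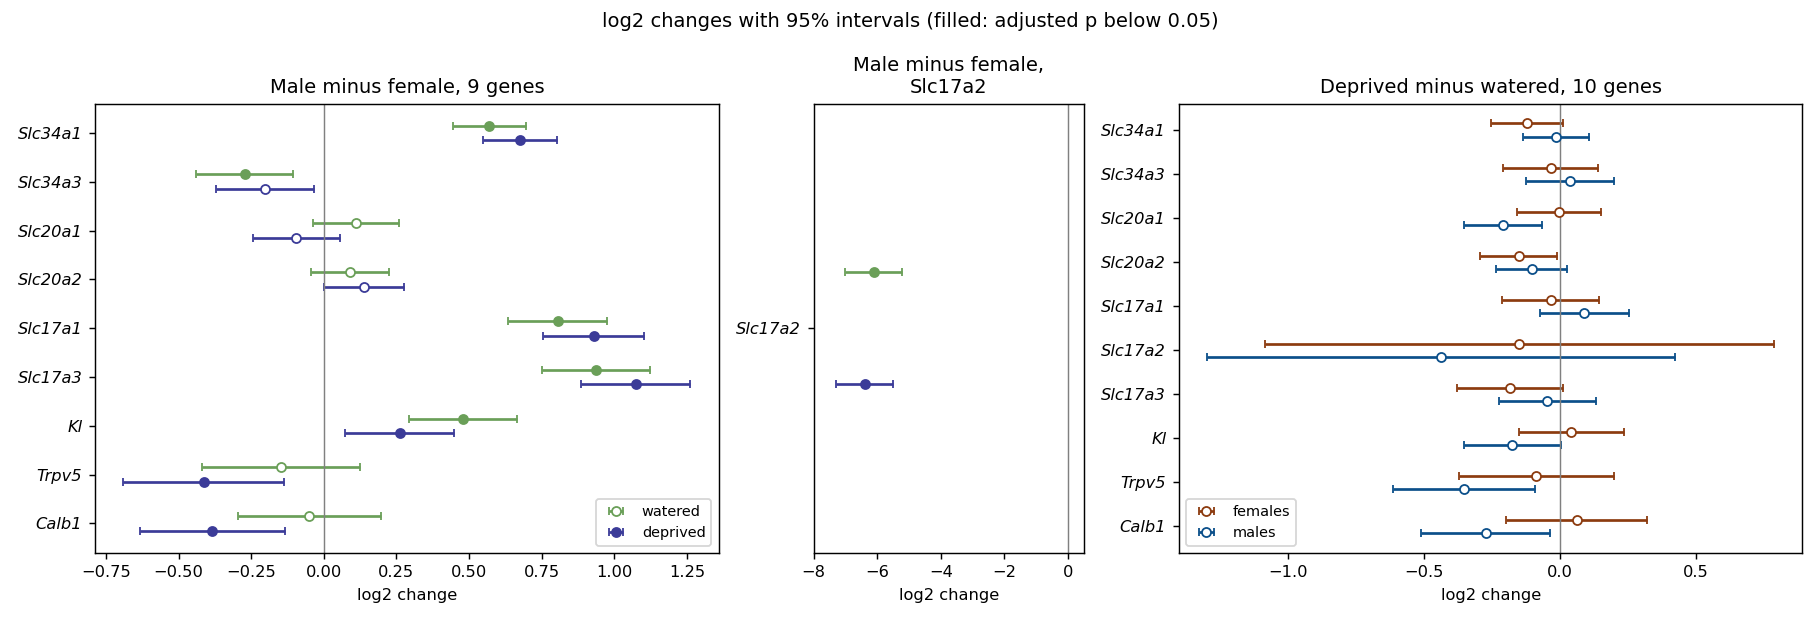
The log2 changes (horizontal axes) with 95% intervals from limma, filled where the adjusted p is below 0.05. The left panel shows male minus female for 9 genes in watered and deprived mice, the middle panel the same for Slc17a2 on its own axis, and the right panel deprived minus watered for 10 genes in females and males. Every point of the right panel is open, and the widest intervals there are those of Slc17a2.

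Water deprivation gave no called change in any of the 10 genes. In females 0 of 10 were called, against 0.79% of all tested genes, and in males 0 of 10, against 0.227%. For the mean response over both sexes the count was 0 of 10, against 1.64%, and for the difference between the responses 0 of 10, against 0% of all genes. The shares over all genes depend on single libraries and on the tool. In females 139 genes were called, with 741 without the 4 libraries that stand apart, 2 with deprived female 5 counted as watered and 364 by DESeq2. Leaving out 1 library gave 66 (watered female 2) to 215 (deprived male 7), with 68, 70, 81 and 86 without deprived female 5, 4 or 3 or watered female 5. In males 40 genes were called, with 142 without the 4 libraries, 157 by DESeq2 and 11 in a fit of the males only. The count was 22 or 25 without watered male 3 or 4 and 65 without deprived male 3. edgeR and DESeq2 on the recovered reads also gave 0 of 10 in each of the 4 comparisons. At an unadjusted p below 0.05 the counts were 1 in females (Slc20a2), 3 in males (Slc20a1, Trpv5 and Calb1), 3 for the mean response (Slc20a1, Slc20a2 and Trpv5) and 0 for the difference, where 9.73%, 11.6%, 13.4% and 7.09% of all tested genes passed that level. For the difference between the responses limma and edgeR called 0 of all tested genes and DESeq2 called 30. The groups compared in females and those compared in males have no library in common. Their tests still share 1 estimate of the spread from all 24 libraries, and the mean response uses both sexes.

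The most abundant carrier, Slc34a1, changed by -0.12 ± 0.06 in females (95% interval -0.26 to 0.01, limma, adjusted p = 0.58) and by -0.02 ± 0.06 in males (-0.14 to 0.10, limma, adjusted p = 0.91). Slc34a3 changed by -0.04 ± 0.09 (-0.21 to 0.14) and 0.03 ± 0.08 (-0.13 to 0.20). In fold terms the interval for Slc34a1 was 0.838 to 1.01 in females, and that in males was 0.909 to 1.11.

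The lowest adjusted p of any single response was that of Slc20a2 for the mean response, at -0.13 ± 0.05 (limma, adjusted p = 0.19). In females Slc20a2 was the only one of the 10 genes whose groups did not overlap, which 2.48% of all tested genes showed, 1.33% with the deprived females lower. The watered females had 1130 to 1272 and the deprived females 1009, 1094, 1124, 1041 and 1073, a log2 change of -0.15 ± 0.07 (limma, adjusted p = 0.45). Slc20a1 had 802 to 957 in watered and 702 to 839.7 in deprived males (-0.21 ± 0.07, limma, adjusted p = 0.23), and in females the change was -0.0044 ± 0.08 (limma, adjusted p = 0.996).

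The 3 genes of the Slc17a cluster changed by -0.18 to -0.04 in females and by -0.44 to 0.09 in males, and none was called. Kl changed by 0.04 ± 0.09 in females (95% interval -0.15 to 0.24, limma, adjusted p = 0.98) and by -0.18 ± 0.09 in males (-0.36 to 0.0016, limma, adjusted p = 0.43). In males, Trpv5 changed by -0.35 ± 0.13 (-0.62 to -0.09, limma, adjusted p = 0.28) and Calb1 by -0.27 ± 0.12 (-0.51 to -0.04, limma, adjusted p = 0.36). The male values of Kl and Trpv5 rest in part on the libraries that stand apart. Without the 4 libraries the changes in males were -0.05 ± 0.06 for Kl (limma, adjusted p = 0.77), -0.23 ± 0.09 for Trpv5 (limma, adjusted p = 0.28) and -0.24 ± 0.14 for Calb1 (limma, adjusted p = 0.50).

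Trpv5 and Kl were the members most tied to the libraries that stand apart. For both, watered female 6 and deprived female 1 had the lowest count of their groups and deprived males 6 and 7 the lowest pair of theirs. Trpv5 had 376.3, 333, 290.4 and 265.7 in the 4 libraries in that order, and Kl had 11589, 11298, 12889 and 12161. The calcium-sensing receptor gene Casr, which sits in the thick ascending limb and is on the calcium list below, had 691.1, 407.3, 336.4 and 273.7, below all 20 other libraries, whose lowest value was 778.7. Slc34a1, by contrast, was the highest of its group in watered female 6 and deprived male 6 and the lowest in deprived female 1 and deprived male 7. What sets the 4 libraries apart was not tested.

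**Figure D4:**
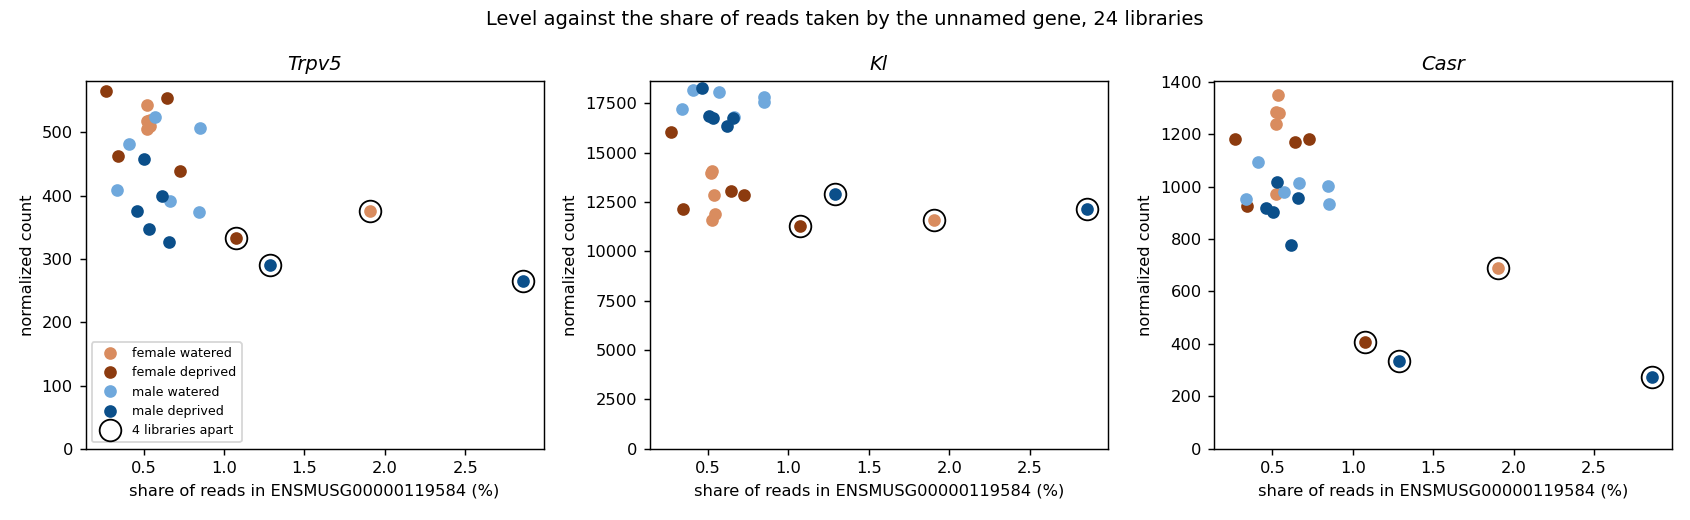
Normalized count of Trpv5, Kl and Casr (vertical axes, from 0) against the share of reads taken by the unnamed gene ENSMUSG00000119584 (horizontal axes, %) in 24 libraries, coloured by group. The 4 circled libraries, with 1.07% to 2.86% of reads in that gene, hold the lowest Trpv5 and Kl counts of their groups and the 4 lowest Casr counts of all.

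Other genes of phosphate and vitamin D control were read from a list of 25, of which 23 were in the table and tested. In watered mice 6 were higher and 3 lower in males, against 15.9% and 14.5% of all tested genes, with a median log2 difference of 0.08, against -0.02 over all tested genes. Galnt3, whose product glycosylates FGF23, had 1000 to 1157 normalized counts in females and 1603 to 2143 in males (0.84 ± 0.08, limma, adjusted p = 5.8e-09). Pth1r, the receptor of parathyroid hormone, was higher in males when watered (0.37 ± 0.08, limma, adjusted p = 0.00055) and when deprived (0.51 ± 0.08, limma, adjusted p = 1.3e-05). Slc9a3r1, a scaffold that anchors Slc34a1 in the brush border, was higher in males by 0.29 ± 0.05 (limma, adjusted p = 0.00014), and the phosphate exporter Xpr1 by 0.52 ± 0.09 (limma, adjusted p = 1e-04). Rxra, the partner of the vitamin D receptor, was higher by 0.53 ± 0.08 (limma, adjusted p = 2e-05). Slc34a2, the family member best known from gut and lung, was lower in males, with 108.9 to 144.3 in females and 52.6 to 76.2 in males (-1.06 ± 0.14, limma, adjusted p = 1.7e-06), as was the FGF receptor Fgfr3 (-0.57 ± 0.10, limma, adjusted p = 5.7e-05). The scaffold Pdzk1 was not called (0.21 ± 0.09, limma, adjusted p = 0.078).

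On deprivation 0 of these 23 genes were called in females and 0 in males by limma, and 1 rose in the mean response, against 0.955% of all tested genes. That gene was Slc9a3r2, a second scaffold of the same family, at 0.25 ± 0.05 (limma, adjusted p = 0.01). It had 1435 to 1696 in watered females and 1732, 1688, 1939, 2125 and 1722 in deprived females, and 1151 to 1609 in watered and 1435 to 1772 in deprived males. Cyp27b1, the enzyme that makes active vitamin D, had 67.6 to 500 in watered and 28.6 to 134.4 in deprived males, a change of -1.21 ± 0.39 that did not pass (limma, adjusted p = 0.22). The highest of these values, 500, was that of watered male 5.

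Of the 20 genes listed for renal calcium handling, 19 were in the table and tested. Pvalb, Trpm6, Slc8a1, S100g and Klk1 of this list are also distal convoluted and connecting tubule markers used above. Umod, Cldn16 and Cldn19 are also thick ascending limb markers. Results for the calcium list and for these marker lists therefore rest in part on the same genes. In watered mice 1 was higher in males and 6 were lower, against 15.9% and 14.5% of all tested genes, with a median log2 difference of -0.20, against -0.02. The one higher gene was Cldn2, the cation channel of proximal tight junctions, at 0.28 ± 0.07 (limma, adjusted p = 0.0023). Among the lower ones were Cldn19, a tight junction protein of the thick ascending limb (-0.48 ± 0.07, limma, adjusted p = 1e-05), Egf, made in the distal tubule (-0.45 ± 0.11, limma, adjusted p = 0.0019), the calcium buffer Pvalb (-0.62 ± 0.17, limma, adjusted p = 0.0076) and the calcium pump Atp2b2 (-0.53 ± 0.17, limma, adjusted p = 0.017). In deprived mice 1 was higher and 7 were lower in males, against 17.5% and 15.6% of all tested genes, among them the channel Trpv6 (-0.71 ± 0.16, limma, adjusted p = 0.0014) and the exchanger Slc8a1 (-0.42 ± 0.11, limma, adjusted p = 0.0033). Deprived female 1 and deprived males 6 and 7, of the libraries that stand apart, had the lowest Slc8a1 of their groups. The Slc8a1 difference without these libraries is not given here.

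On deprivation 0 of the 19 calcium genes were called in females by limma, 1 rose in males, against 0.142% of all tested genes, and 2 rose in the mean response, against 0.955%. Without Cldn14, which had to differ because of the filter described below, 0 of 18 rose in males and 1 of 18 in the mean response. The gene called in males was Cldn14, whose product blocks calcium passage through the tight junctions of the thick ascending limb. It had 2.23, 0, 0, 4.55, 3.85 and 2.6 normalized counts in the watered males and 7.37 to 19.6 in the deprived males, with a median of 9.34. Watered females had 1.96 to 5.74 and deprived females 7.68, 7.54, 7.92, 17.3 and 12.3. Every deprived mouse was above every watered mouse, at 0 to 7 reads per library in the watered and 6 to 18 in the deprived mice. The log2 change was 2.28 ± 0.40 in males (limma, adjusted p = 0.0061), 1.39 ± 0.43 in females (limma, adjusted p = 0.15) and 1.83 ± 0.29 for the mean (limma, adjusted p = 0.00098). Cldn14 passed the filter on low values through 5 deprived libraries alone. The male call was lost when males were fitted alone (adjusted p = 0.095), and DESeq2 gave no adjusted p for the mean response. Cldn16, a partner of Cldn19, rose by 0.27 ± 0.07 in the mean response (limma, adjusted p = 0.029). That call was lost on leaving out watered female 2, 3 or 5, deprived female 2 or 3 or watered male 6 (adjusted p of 0.052 to 0.06). Deprived males 7 and 6, of the libraries that stand apart, had the highest Cldn16 of their group (304.6 and 280.5).

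**Figure D5:**
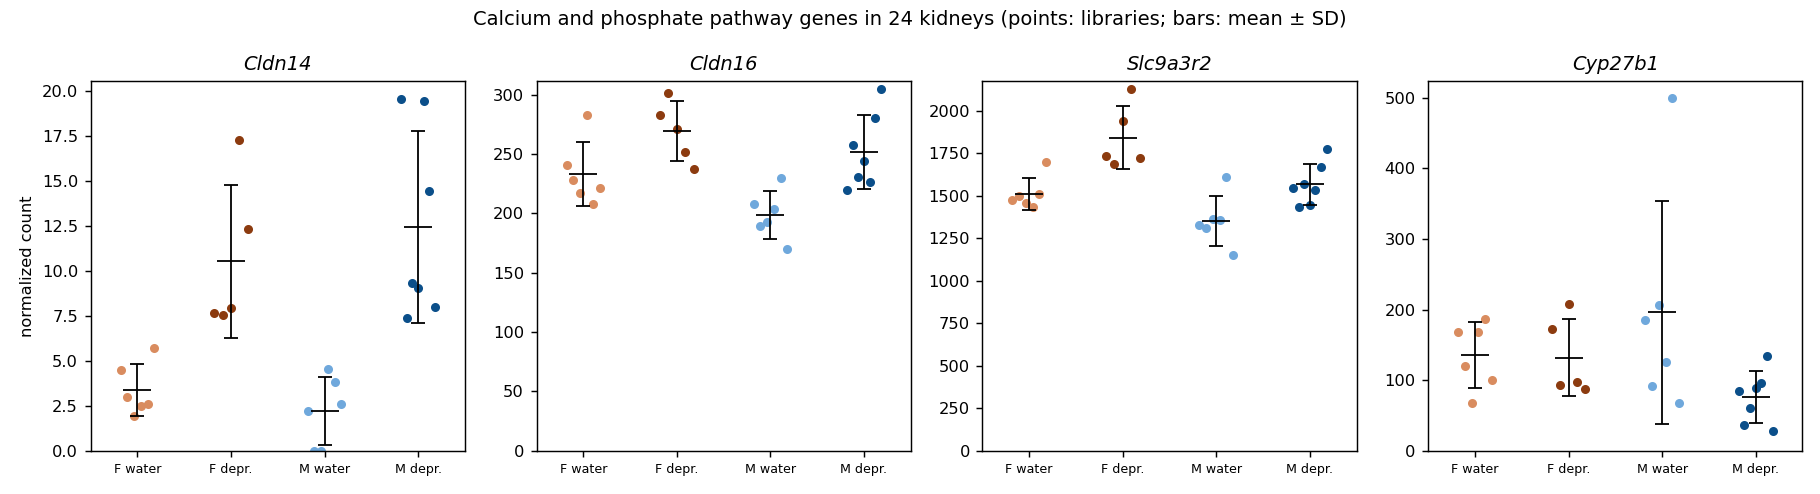
Normalized counts (vertical axes, from 0) of Cldn14, Cldn16, Slc9a3r2 and Cyp27b1 in each of 24 libraries (points), by group, with mean and SD. Every deprived library lies above every watered library for Cldn14, at levels below 20 throughout; for Cyp27b1 1 watered male stands at 500.

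Since Slc17a1 and Slc17a3 carry urate, a list of 10 urate genes was read beside them, all tested. In watered mice 4 were higher and 4 lower in males, against 15.9% and 14.5% of all tested genes. The urate exchanger Slc22a12 had 12129 to 13837 in females and 23114 to 28375 in males (1.00 ± 0.12, limma, adjusted p = 2e-07), and Slc16a9 was higher by 0.87 ± 0.07 (limma, adjusted p = 4.6e-10). The exporter Abcc4 had 2555 to 3192 in females and 963 to 1242 in males (-1.39 ± 0.11, limma, adjusted p = 2e-10). On deprivation 4 of the 10 fell in females, against 0.341% of all tested genes, and 0 were called in males by limma. The 4 were the organic anion uptake carriers Slc22a6 (-0.46 ± 0.09, limma, adjusted p = 0.011) and Slc22a8 (-0.28 ± 0.06, limma, adjusted p = 0.028), Slc22a13 (-0.25 ± 0.06, limma, adjusted p = 0.046) and the urate carrier Slc2a9 (-0.48 ± 0.10, limma, adjusted p = 0.019). With deprived female 5 counted as watered, Slc22a8, Slc22a13 and Slc2a9 were no longer called (adjusted p of 0.29, 0.54 and 0.33). Leaving out 1 library ended the call of Slc22a13 in 18 of 24 cases (adjusted p up to 0.14), that of Slc22a8 for watered female 2, 3, 5 or 6 or deprived female 1, 3, 4 or 5 (0.055 to 0.09), and that of Slc2a9 for watered female 2 or 3 or deprived female 5 (0.052 to 0.061). The difference between the sexes in this response was not called for any of the 10.

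Genes whose level followed that of a member were sought among 11803 tested genes with a mean of at least 50. For Slc34a1, Slc17a1, Slc17a2 and Slc17a3 the sexes form separate clusters, so no pooled correlation is given. None is given for Slc34a3 and Kl either, whose sexes overlapped (for Kl in deprived mice) but were called as different in watered mice. For Trpv5 the 3 closest were the calcium pump Atp2b4, the exchanger Slc8a1 and Parp4, with Pearson r of 0.87 each and Spearman rho of 0.86, 0.88 and 0.80 over 24 libraries. Within the 11 females their r was 0.88, 0.80 and 0.83, within the 13 males 0.82, 0.84 and 0.85, and 0.80, 0.79 and 0.78 without the 2 libraries farthest from the median of Trpv5. For Calb1 the closest were Fam118a, Sgms2 and again Slc8a1, with r of 0.79, 0.76 and 0.74. In that order r was 0.69, 0.57 and 0.47 in females against 0.78, 0.81 and 0.82 in males. For Slc20a2 the closest were B3galt5, Ptk2b and the scaffold Pdzk1, each with r of 0.89. Their r was 0.78, 0.79 and 0.75 in females against 0.92, 0.91 and 0.92 in males. These are descriptions of the same libraries from which the genes were picked, and the libraries share depth, cell mixture and the 4 that stand apart.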

How the data were processed

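RNA-seq of kidneys from 24 mice was analysed from a single deposited table. The submitters' processing notes name mm10 as the build and list DESeq2, featureCounts (Subread) and Trim Galore, all unversioned. The strand setting, annotation and aligner were not given in the sources used here. The values deposited are gene counts divided by 1 size factor per library, a signal on a linear scale, called normalized counts here. In every column 100.0% of values were within 0.01 read of a whole read once the factor was removed, so reads were recovered for edgeR and DESeq2. edgeR called 6 members and 5461 of all tested genes between the sexes in watered mice. Depth was 14411843 to 29398960 recovered reads per library. No interval given here was computed from these reads.

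Groups were taken from the titles. limma 3.58.1 in R 4.3.3 was fitted to log2(value + 1), a pseudocount of 1, with 1 coefficient per group, a trended and robust variance and all 24 libraries, which understates the change of low genes. The test covered the 17592 genes that reached 10 in 5 or more libraries (1807 did not), with Benjamini-Hochberg adjustment over these genes for each of 6 contrasts. The fit was tested on simulated data. Intervals are at 95%, come from the limma fit and include the spread between mice. Replicates are separate mice. No pair of libraries within a group agreed within sampling noise. Gene positions and exon lengths came from GENCODE M21 (GRCm38), and promoters from RefSeq (GRCm38.p6). Alternatives were TMM scaling, a pseudocount of 5, no filter, edgeR 4.0.16, DESeq2 1.42.0, a replicate block, deprived female 5 as watered, leaving out the 4 libraries that stand apart, each contrast fitted alone, and leaving out each library. The members, the 3 pathway lists and the 10 marker lists were chosen with earlier results of these data known. All 10 members were named; of a pathway list, up to 6 called genes by p-value and up to 2 not called could be named per contrast, and Pth1r in watered mice, Casr by library, Slc17a4 and the flanking genes were chosen after their values were seen. The genes closest in level to Slc20a1 are not reported here.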

Additional observations from a re-analysis of the deposited data

Results flagged for a closer look

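In 7 of the 40 combinations of gene and group, 1 library lay apart from the rest of its group by Dixon's criterion, which chance meets in about 1 of 20 groups. Watered male 5 accounted for 4 of them: it had the lowest Slc20a2 (1113, the other 5 watered males 1265 to 1340), the lowest Slc17a1 (10994, others 13240.4 to 14169), the lowest Slc17a3 (12866, others 16263 to 16867) and the highest Calb1 (13703, others 8748 to 10169). In the same library the summed distal convoluted and connecting tubule markers (87399, others 69754 to 77796) and the intercalated cell markers (11476, others 8665 to 9076) were the highest of the group and the proximal tubule markers (557683, others 573517 to 635886) the lowest. The podocyte (7770, others up to 7505), endothelial (13367, others up to 12149), stroma and smooth muscle (7045, others up to 5886) and immune (3045, others up to 2711) markers were also the highest of the group, and the thick ascending limb markers (99985, others from 101874) the lowest. The part of these 8 lists was not tested. Slc17a1 stood high in deprived male 7 (19196, others 12546 to 14345), and Trpv5 low in watered female 6 (376.3, others 505.8 to 542.6), both libraries rich in the unnamed gene ENSMUSG00000119584. Slc34a3 was low in deprived female 5 (1092, others 1246 to 1304), the mouse whose treatment label disagrees with its title.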

How the results depend on the processing

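The count of members called between watered males and females was 6 under every alternative except leaving out the 4 libraries that stand apart, which gave 7, and the 4 responses to deprivation gave 0 under every alternative run. In deprived mice the count between the sexes was 7, with 8 without the 4 libraries, 5 with the deprived groups fitted alone, and 5 to 9 on leaving out 1 library. No member reversed a called direction. Deviations of libraries with the same title number from their group means had correlations from -0.17 to 0.17. The library codes number deprived females 3, 4 and 5 otherwise, and matching by code was not tested. The replicate block used the title numbers too. These values do not settle whether the replicate numbers mark a pairing or a batch. The replicate block left the member counts at 6, 0, 0, 0, 0 and 7, calling Slc20a2 (0.20, limma, adjusted p = 0.015) in place of Trpv5 (-0.30, adjusted p = 0.0504) in deprived mice, and raised the number of all tested genes called on deprivation, in females from 139 to 203, in males from 40 to 64. Counts over all tested genes were unstable. For the mean response 289 became 1230 without the 4 libraries, 562 by DESeq2, 120 with deprived female 5 counted as watered, and 169, 179 and 189 without watered female 2, deprived female 4 or watered male 1. For the difference between the responses 0 became 9 without the 4 libraries and up to 3 on leaving out 1 library. Depth limits Slc17a2 in males and Cldn14, at 0 to 18 reads per library.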
